A study of Mus musculus with 415 samples.

Results

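The widely open regions are autosomal regions that carried signal in most cells of a differentiating mouse embryonic stem cell culture. They were chosen by 3 values from the table itself: a width under 2000 bp, signal in at least 50% of the cells, and a median below 2.5 fragments in the cells where they were open. They make up 1.78% of the 23180 regions measured and 1.84% of the 22399 autosomal regions under 2 kb. The culture consisted of R1 mouse embryonic stem cells aggregated for 48 hours by the hanging drop method, then cultured as embryoid bodies in 0.5 mM retinoic acid, as the labels give it, for 4 days. Each sample was 1 cell, tagmented on a Fluidigm C1 chip, and all cells shared this treatment and time, with no untreated group. The labels name no separate cultures or chips, so the cells form 1 sample, no p-value was computed from them, and every comparison is a description. Exact 95% intervals (Clopper-Pearson) cover the counting of cells or regions only.

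In single-cell ATAC-seq the transposase Tn5 inserts adapters where DNA is accessible, so a fragment marks open chromatin in that cell. Promoters of broadly expressed genes and sites bound by the insulator protein CTCF are known to be accessible in many cell types, whereas distal enhancers tend to differ between them. A diploid cell offers few copies of each region, so an accessible region is often missed, and the share of cells with signal depends on depth. The table names no genes, and the gene and promoter tables at hand are on the build GRCm38. Regions are therefore given by position as the table lists them, read as mm9, the build named in the submitters' processing notes. For the same reason the labelled cell type was not checked against marker genes, and promoters, genes and sequence motifs were not examined.

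Depth varied widely between cells, from 756 to 12267 open regions (median 3928) and from 791 to 25069 fragments (median 4529), where 1 fragment is the signal of 1 read pair. No 2 cells held identical values. Most regions were autosomal, 22681 of the 23180. Of 451 regions open in at least 50% of cells, none lay on chromosome X, 27 were 2 kb or wider, and 12 narrower ones had a median of 2.5 fragments or more. Taking those 27 and 12 from the 451 leaves the members.

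The choice of members fixed their high share of open cells, which is given as a description. The median member was open in 55.1% of cells and the highest in 79.5%. No member was open in every cell. Of the members, 99 reached 60% and 13 reached 70%. For 51.5% of them the exact interval of the share lay wholly at or above 50%. Just inside the limit, 9 members were open in 50.1% of cells, among them chr3:79432353-79433563, chr3:88356625-88358425, chr4:47365693-47366739, chr6:89593825-89594807 and chr7:106529232-106530907. Just outside it, 16 regions were open in 49.9%, among them chr1:38053708-38055292, chr1:167564174-167565140, chr10:80288820-80289808, chr10:94977271-94978424 and chr11:118151176-118151973. These 2 sets differ by 1 cell, so the limit divides a continuous range.

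The 10 members open in most cells lay on 9 chromosomes and were 808 to 1880 bp wide. At chr15:102235765-102237135 signal over all cells ran from 0 to 16.7 fragments with a median of 1.70. At chr17:57170900-57171708, only 808 bp wide, it ran from 0 to 12.3 with a median of 1.53. At chr16:38088351-38089865 the highest cell had 18.6 fragments and the median was 1.51. Even these regions were therefore at 0 in some cells and above 10 fragments in others. The next were chr9:56923169-56925049 (highest 14.9 fragments), chr14:22318811-22320599 (8.99), chr17:26056312-26057568 (13.2) and chr18:21458185-21459261 (10.1). The list ended with chr7:20300597-20301595 (72.8% of cells), chr1:133423065-133424854 (72.5%) and chr3:107135263-107137077 (72.5%). By mean signal the order changed: chr16:38088351-38089865 came first with 2.18 fragments per cell, followed by chr15:102235765-102237135 with 2.16 and chr17:57170900-57171708 with 2.01. The intervals of the 10 shares reached from 67.96% at the lowest bound to 83.3% at the highest, and neighbours in the order overlapped.

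Members were wider than most regions and held more fragments where open. Their median width was 1106 bp (quartiles 927.5 and 1374.25, at most 1978), against 746 bp in the 21987 other autosomal regions under 2 kb. The next class, 877 regions of the same kind open in 40 to 50% of cells, had 1080 bp. Within the members, width hardly went with the share of open cells (Spearman's rho 0.0612). It was as weak in the 40 to 50% class (0.0754) and weak at 20 to 40% (0.155), while over all other regions, with their wider range of shares, rho was 0.530. More than 1 fragment was present in 52.9% of the members' open values, in 42.4% of those of the next class and in 27.9% over the other regions. More than 4 fragments were present in 6.76%, 2.99% and 1.09%. The percentage with more than 1 fragment fell with the share of open cells, to 31.1% at 20 to 40% and 21.3% under 20%. Members spanned 2.51% of the summed width of all regions and held 5.50% of all open values and 7.80% of all fragments. The rule chose members by their share of open cells in these same values. Their high parts of open values and fragments go with that choice and are a description. Regions of 2 kb or wider that were open in at least 50% of cells with the same limit on fragments numbered 25. Their mean signal had a median of 1.12 fragments per cell, against 0.972 in the members. Per kb of width it was 0.475 against 0.923, a difference in the other direction that the limit on width sets.

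Chromosome 7 held the most widely open regions. All 19 autosomes had members, from 10 on chromosomes 13 and 18 to 53 on chromosome 7. On chromosome 7, 3.55% of its regions under 2 kb were members (interval 2.67% to 4.61%), against 1.84% over all autosomes. Chromosome 2 had 19 of 1874 (1.01%, 0.611% to 1.58%) and chromosome 13 had 10 of 1011 (0.989%, 0.475% to 1.81%), both below that level. The intervals of the other 16 chromosomes held it. These intervals treat regions as independent of each other, which neighbours need not be.

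**Figure D1:**
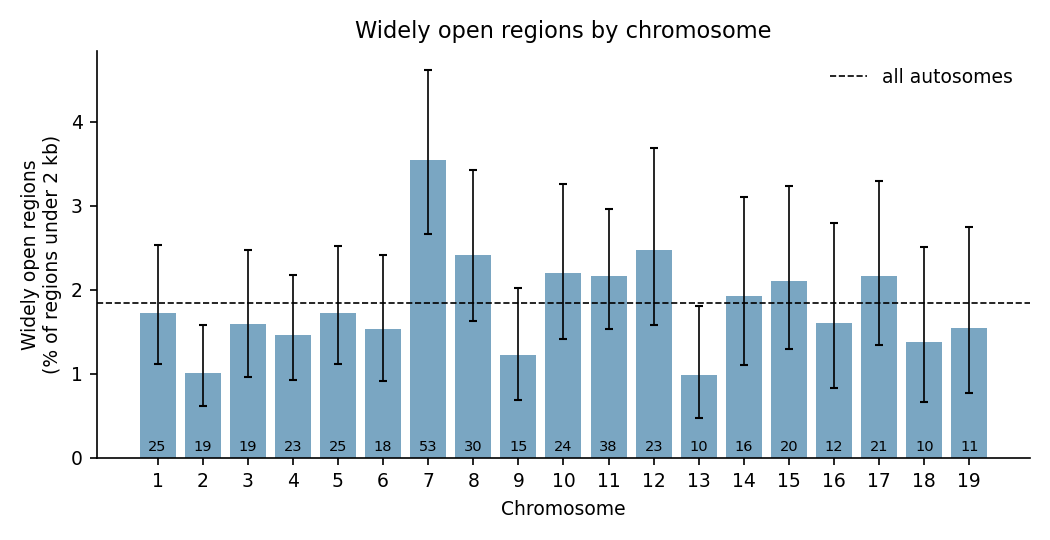
Widely open regions as a percentage of the autosomal regions under 2 kb on each chromosome, with exact 95% intervals as error bars and the number of regions at the foot of each bar. The bar of chromosome 7 (53 regions, 3.55%) has its whole interval above the dashed line at 1.84%, and the bars of chromosomes 2 and 13 have theirs below it.

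The excess on chromosome 7 was found at the upper end of the range of shares. Among regions under 20% of cells, chromosome 7 held 6.29%. It held 7.53% of those at 30 to 40%, 5.96% of those at 40 to 45% and 8.47% of those at 45 to 50%. Its part was 11.7% (interval 7.61% to 16.8%) at 50 to 55%, 15.0% (8.80% to 23.1%) at 55 to 60% and 13.1% (7.18% to 21.4%) at 60% or more. Chromosome 11 held 7.43% under 20%, 5.83% at 50 to 55%, 12.1% at 55 to 60% and 13.1% at 60% or more. The members of chromosome 7 were not gathered in 1 place. Divided into 15 stretches of 10 Mb, which leave out its last part, the chromosome had members in all but the stretch from 60 to 70 Mb. The fullest stretch, from 20 to 30 Mb, held 9. Per Mb of the span covered by regions, chromosome 7 had 0.355 members, chromosome 11 had 0.320, and all autosomes together 0.171.

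Members lay closer to the nearest member than other regions did, and the nearest region of any kind was usually not a member. The distance from a member to the nearest member had a median of 832 kb (quartiles 267.7 and 3085 kb). From other regions under 2 kb to the nearest member the median was 1769 kb. Of the members, 46 (11.2%) had another member within 100 kb, against 7.44% of all autosomal regions under 2 kb and 10.3% of the 40 to 50% class. Members are more frequent on some chromosomes, and these distances were not corrected for that. To the nearest region of any kind the median was 22.5 kb for members and 20.7 kb for the others. That nearest region was open in a median of 15.1% of cells for members and 14.2% for the others. It was itself a member for 12 members (2.91%), against 1.59% of all autosomal regions under 2 kb and 2.05% of the 40 to 50% class. A widely open region thus stood, as a rule, beside regions of ordinary frequency.

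The number of regions around a member varied more than it differed from the rest. Members had 4.56 ± 3.76 (SD over members) other regions within 100 kb, and other regions had 3.96 ± 3.36 (SD over 21987 regions). Within 1 Mb the numbers were 36.3 ± 22.3 and 30.8 ± 18.4. The mean was higher for members on 13 of 19 chromosomes at either distance. In all, 31 members (7.52%) had no other region within 100 kb, against 10.2% of all autosomal regions under 2 kb and 8.78% of the 40 to 50% class.

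A few stretches held several members. Chosen after their values were seen, the fullest windows of 1 Mb were chr10:79316710-80165693 and chr7:51560000-52273417 with 6 members each, and chr5:135484525-136439087 with 5. Positions are given from the first to the last member, and the full windows of 1 Mb from each start held 60, 52 and 33 regions under 2 kb. The 2 closest members lay 831 bp apart, at chr11:74643428-74644468 and chr11:74645299-74646068. The next pair, at chr8:11555183-11556414 and chr8:11557769-11558502, was 1355 bp apart. The other 3 of the 5 closest pairs were 16505 bp apart on chromosome 8 (chr8:86478929-86479784 and chr8:86496289-86497162), 17292 bp apart on chromosome 10 (chr10:4521481-4523035 and chr10:4540327-4541326) and 17594 bp apart on chromosome 5 (chr5:34511844-34512538 and chr5:34530132-34530930).

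The share of cells in which a member was open followed depth closely. Cells were divided into 4 classes of nearly equal size by their number of open autosomal regions outside the members, from 683 to 2321 in the shallowest class and from 5308 to 11628 in the deepest. The median member was open in 29.8%, 49.04%, 63.1% and 80.8% of the cells of these classes. The regions of the 40 to 50% class had 21.2%, 36.5%, 50.5% and 68.3%, and the other regions under 2 kb 5.77%, 10.6%, 15.5% and 26.9%. In the shallowest class 6 members reached 50%, against 0.0804% of all autosomal regions under 2 kb. In the deepest class every member did, against 16.2%. The rule used all these cells, so both counts are a description.

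**Figure D2:**
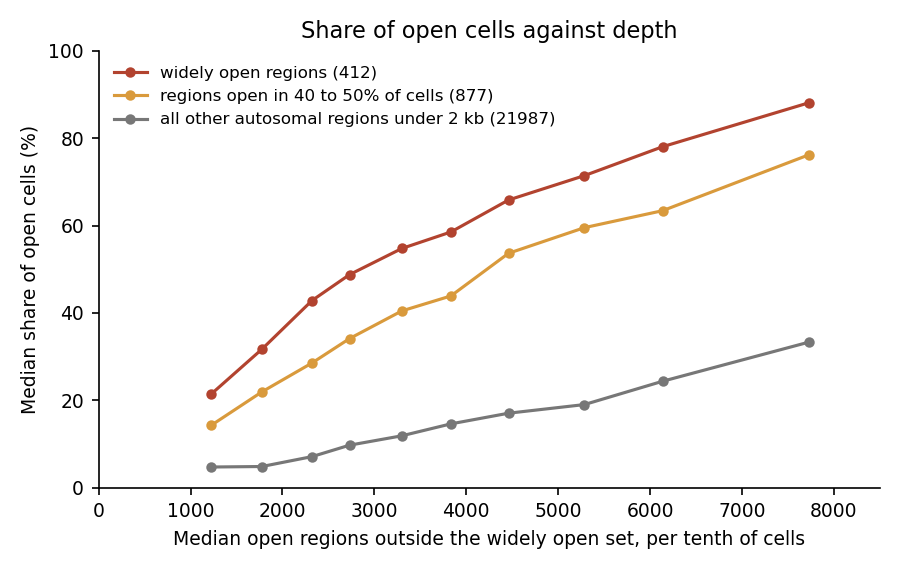
Median share of open cells against depth in 10 classes of 41 or 42 cells, for the widely open regions, the 877 regions open in 40 to 50% of cells and all other autosomal regions under 2 kb. Each point is 1 class, placed at its median number of open regions outside the widely open set. The share of the widely open regions rises from 21.4% to 88.1%. The order of the 3 sets is the same in every class, but the sets were defined by share in these same cells.

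Shallow and deep cells ranked many of the same regions highest. Ranked among 22387 regions under 2 kb with the same limit on fragments, the median member had a percentile rank of 98.995 in the shallowest class and 99.03 in the deepest. The lowest member stood at the 91.4th percentile in the shallowest class and at the 95.7th in the deepest. The rule used the cells of every class, so high ranks follow from it and are a description. The most open regions of the shallowest and of the deepest class, as many as there are members, were taken separately from different cells, and 66.3% of each list was shared. Within the members Spearman's rho between shares in the shallowest and the deepest class was 0.441, against 0.740 over the 22387 regions. The rule confines members to a narrower range of shares, which lowers rho, so these values are not like for like.

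The ratio of shares between shallow and deep cells varied among members. The share in the shallowest class over that in the deepest had a median of 0.368 and ran from 0.210 to 0.636. The highest ratio belonged to chr16:38088351-38089865, open in 60.6%, 68.3%, 78.6% and 95.2% of the 4 classes. It was followed by chr11:105945172-105946603 (0.613), chr3:5860383-5860771 (0.595), chr14:19070716-19072069 (0.566) and chr6:124778753-124780260 (0.562). The region chr3:5860383-5860771 stood out in other ways: it was the narrowest member, it had no other region within 100 kb, and its signal reached 17.6 fragments. It was open in 42.3%, 48.1%, 56.3% and 71.2% of the 4 classes. The lowest ratio was at chr8:74093429-74094726, open in 16.3%, 56.7%, 55.3% and 77.9%. The next lowest were chr16:58408175-58409064 (0.220), chr18:80347587-80348749 (0.238), chr6:113276387-113277321 (0.238) and chr12:85262528-85263225 (0.250). Each class holds about 25% of the cells, so these ratios carry wide counting error, and the extremes were picked among all members.

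At equal numbers of fragments the share of open members differed far less between the depth classes than without thinning. When 1000 fragments were drawn from each cell, outside the autosomal regions with a median of 2.5 fragments or more, the median member was open in 17.2%, 17.3%, 16.5% and 16.3% of the 4 classes. A cell then had 72.5 ± 13.2 (SD over cells), 74.2 ± 10.7, 70.5 ± 10.96 and 68.03 ± 9.15 members open. The mean was lowest in the deepest class. This draw was chosen after seeing the data and left out 2 shallow cells. The draw that had been planned, of 1500 open regions per cell, gave a higher share in shallow cells, 25.4% in the shallowest class and 17.3% in the deepest. It left out 33 cells. It counts each open region once whatever its number of fragments, which in deep cells was more than 1 in 69.4% of the members' open values, against 29.04% in the shallowest class. Their part in the result was not tested.

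A median cell had 57.04% of the members open, and cells ran from 9.71% (40 members) to 98.3%. At least 50% of the members were open in 62.4% of cells, and at least 90% in 14 cells. Members made up 3.18% to 10.1% of a cell's open regions (median 6.00%) and 3.24% to 12.5% of its fragments (median 7.97%). The number expected in each cell was computed from its other autosomal regions. Observed over expected numbers lay between 0.846 and 1.18 for the middle 90% of cells. The lowest cell had 40 open members where 65.2 were expected and the highest had 1.43 times its expected 90.3. Both were shallow, with 840 and 1274 open regions. In the lowest, 28.2% of the fragments lay in the autosomal regions with a median of 2.5 fragments or more, and in the highest 8.04%. Their part in the result was not tested.

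**Figure D3:**
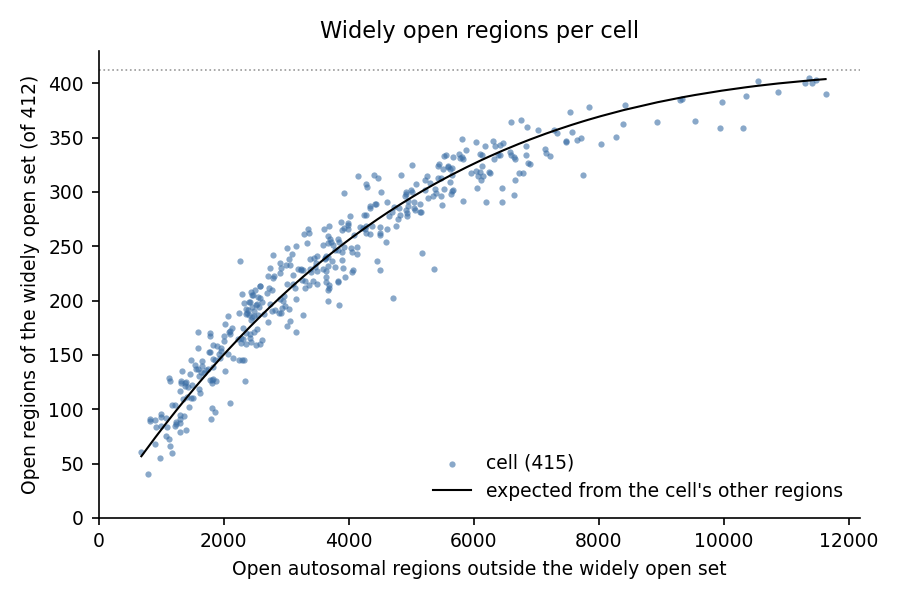
Open regions of the widely open set in each cell against the cell's open autosomal regions outside the set. The black line is the number expected from those other regions and the dotted line the size of the set. Cells follow the line from 9.71% to 98.3% of the members and scatter around it on both sides.

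Cells nevertheless differed in their open members by more than counting. The squared difference between observed and expected numbers, over the variance expected for independent regions, was 5.14. Taken on each chromosome alone the ratio had a median of 1.39, from 1.08 on chromosome 16 (12 members) to 2.23 on chromosome 7 (53 members). This ratio grows with the number of regions that open together, so it does not rank chromosomes. It was computed for the members alone, so it does not show that such a spread is particular to them. Pairs of the 40 to 50% class on different chromosomes also had a mean correlation above 0 after correction for depth (0.00493). A cell with more open members than expected on the odd-numbered autosomes tended to have more on the even-numbered ones. Over all cells Pearson's r was 0.650 and Spearman's rho 0.585, and r was 0.600 in the deeper and 0.652 in the shallower cells. The points share the cell, its library and the estimate of its depth. Over cells, observed over expected numbers had r = -0.180 (rho -0.221) with the number of other open regions. With the percentage of fragments in the regions with that high median, r was -0.0806 and rho 0.0797, of opposite sign.

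Over pairs of members the correlation left after correction for depth was small, and on average above 0. Of 84666 pairs, 56.7% had a correlation above 0 over cells, and the middle 90% of correlations lay between -0.0751 and 0.0930. The number of cells with both regions open over that expected had a median of 0.994 over all pairs, slightly below 1, so the 2 measures differ in direction. The fitted expectation was too low for members in the shallowest cells (observed over expected 1.03) and too high in the deepest (0.981). Its part in the result was not tested. The mean correlation was 0.0389 ± 0.0347 (SD over 12 chromosomes) for the 29 pairs under 100 kb, between centres, and 0.0325 ± 0.0238 (19 chromosomes) at 100 kb to 1 Mb. It was 0.0209 ± 0.0105 for 732 pairs at 1 to 10 Mb and 0.0174 ± 0.00539 for 4269 pairs beyond 10 Mb. Pairs on different chromosomes had a mean of 0.00805 ± 0.000914. Means were above 0 on all 19 chromosomes beyond 1 Mb and between chromosomes, and on 15 of 19 for pairs under 1 Mb. After thinning to 1500 open regions per cell the mean under 1 Mb was 0.0163 in place of 0.0333. The regions of the 40 to 50% class had 0.0315 under 100 kb, 0.0139 beyond 10 Mb and 0.00493 between chromosomes. At short range the 2 classes differed by less than the SD over chromosomes. In sparse data correlations of this size are no finding for a single pair, and all pairs share the cells and the fit of depth.

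**Figure D4:**
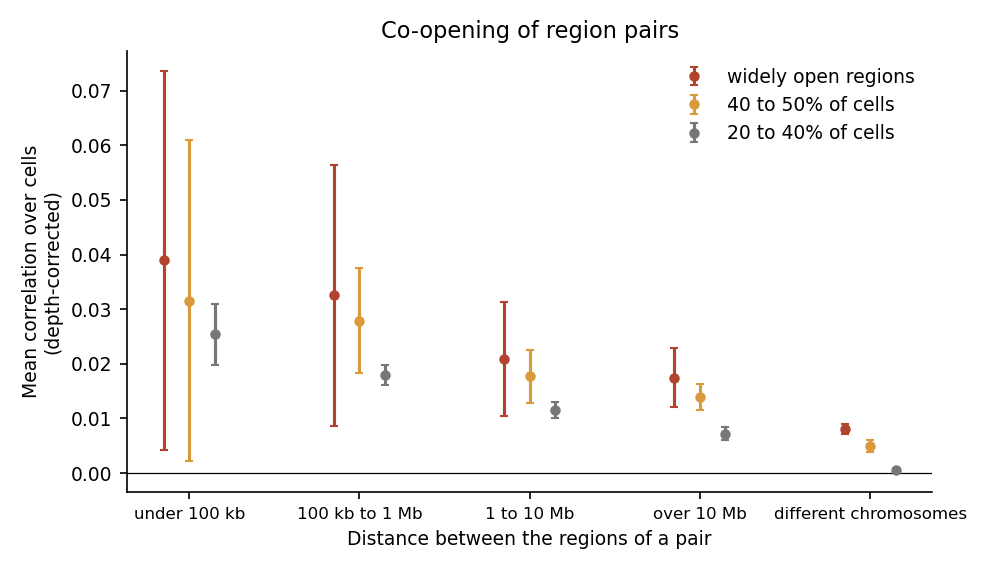
Mean correlation over cells of pairs of regions, corrected for depth, by distance between the regions, for the widely open regions and for regions open in 40 to 50% and 20 to 40% of cells. Error bars are the SD over chromosomes. For the widely open regions the mean falls from 0.0389 under 100 kb to 0.00805 on different chromosomes, and the error bars of the first 2 classes of regions overlap at every distance on 1 chromosome.

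Single pairs showed no strong link, even side by side. The closest pair, on chromosome 11, was open together in 0.980 times the number of cells expected from depth (r = 0.00317). The pair 1355 bp apart on chromosome 8 was open together in 1.06 times the expected number (r = 0.0923). For the other 3 closest pairs r was 0.0395, -0.000294 and 0.0237. The highest correlations were all between different chromosomes, as were most pairs: only 5229 of the 84666 lay on 1 chromosome. The first was between chr7:16683398-16684337 and chr8:19784378-19785158, open together in 1.10 times the expected number (r = 0.235). The next 4 joined chr8:86478929-86479784 with chr9:13631082-13632696, chr11:78510551-78511648 with chr7:100022648-100023986, chr7:36118881-36119791 with chr8:74684725-74685607, and chr6:83781423-83782123 with chr8:108350811-108351702, with r from 0.220 to 0.235. The lowest was -0.215, between chr1:167390204-167391687 and chr15:102347262-102349230. These are the extremes of 84666 values, and no pair was tested.

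Scaled by depth, the median member was open to a similar extent in all 3 clusters of cells. Cells were grouped into 3 clusters from regions that are not members, and members on odd-numbered autosomes were read with clusters made on even-numbered ones, and the reverse. In a separate grouping of the same cells, the 3 clusters held 46.4%, 27.1% and 26.6% of the clustered cells. The 2 groupings in which members were read differed slightly from it in size. Between those 2, made on the 2 sets of chromosomes, 93.7% of cells had the same cluster. The share of open cells in a cluster, scaled by the depth of its cells, was divided by that in the other cells. Over the members this ratio had a median of 1.01, 0.957 and 1.02 in clusters 1, 2 and 3, with 0.864 to 1.19, 0.830 to 1.11 and 0.847 to 1.24 for the middle 90%. Past 1.5-fold were 0 members in clusters 1 and 2, where 15.1% and 14.9% of all autosomal regions were higher and 17.8% and 17.9% lower. In cluster 3, 1 member was higher, against 16.2%, and 2 were lower, against 31.5%. A region open in most cells has less room for a higher ratio. Rarer regions pass 1.5-fold by counting error more easily, so the counts are not like for like. In the 40 to 50% class, nearer in frequency, 19 of 877 regions (2.17%) passed it in any cluster, against 3 members (0.728%) and 55.8% of all autosomal regions. After thinning to 1500 open regions per cell, which lowers every share, 22.1% of members passed it, against 73.6% of all autosomal regions.

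**Figure D5:**
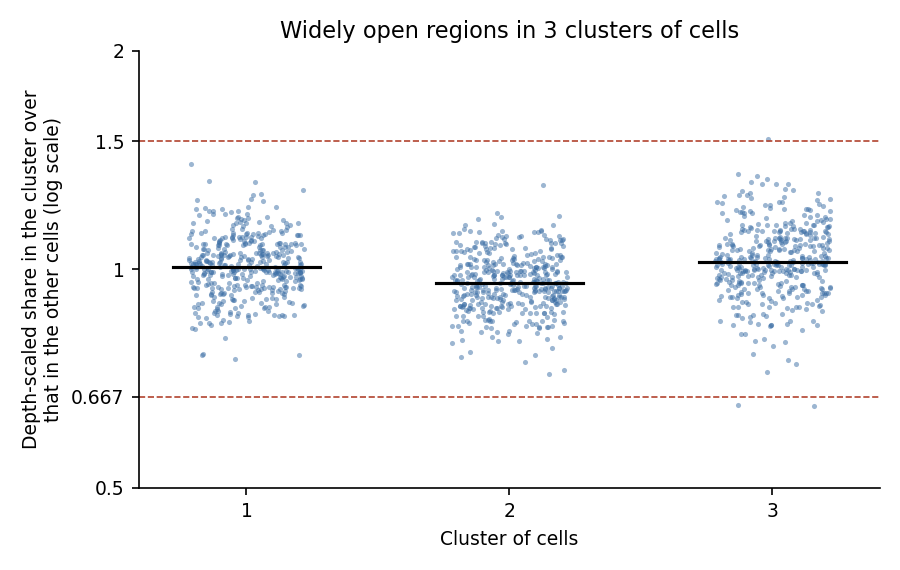
Depth-scaled share of open cells in a cluster over that in the other cells for each of the widely open regions, on a log scale, in 3 clusters of cells made from other regions. Black bars are medians (1.01, 0.957 and 1.02) and dashed lines mark 1.5-fold either way. Only cluster 3 has points beyond the lines, 1 above and 2 below.

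The 3 members past that ratio were all read in cluster 3. The region chr10:86241080-86242350 was open in 69.9% of its cells and 46.3% of the others (scaled ratio 1.51). The region chr12:25515665-25516892 was open in 37.9% and 58.8% (0.648), and chr11:69834330-69835503 in 35.8% and 55.7% (0.650). Both of these had ratios above 1 in cluster 1, at 1.39 and 1.29, and chr12:25515665-25516892 was the highest member there. The cells set against cluster 1 include those of cluster 3, so the ratios in the 2 clusters are not independent. Next to chr10:86241080-86242350 in cluster 3 were chr14:56209550-56210738 (1.35), chr15:77672213-77673145 (1.34), chr7:134351816-134352915 (1.33) and chr5:112705203-112706076 (1.32). In cluster 1 the others of the highest 5 were chr3:5860383-5860771 (1.33), chr3:30993052-30994474 (1.32) and chr10:39450968-39452946 (1.27). In cluster 2 the highest was chr14:65568405-65569357, open in 70.8% of its cells and 44.2% of the others (1.31). It was followed there by chr13:108680161-108681786 (1.20), chr13:112515174-112516284 (1.18), chr4:115893366-115894425 (1.18) and chr15:76180990-76182273 (1.17).

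The titles number the cells, and what the numbers stand for is not stated. In 4 sets of consecutive numbers the median member was open in 53.8%, 56.7%, 56.3% and 56.7% of cells. Scaled by depth, the ratio of a set to the other cells had medians of 0.988, 1.03, 0.983 and 1.001. No member was 1.5-fold higher or lower in any set, against 42.4% of the autosomal regions under 2 kb and 0.912% of the 40 to 50% class. After thinning 27.7% of members passed it, against 77.8% of all autosomal regions. The highest ratio, 1.43 in the set of the highest numbers, belonged to chr3:5860383-5860771, and the lowest, 0.709, lay in the second set.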

How the data were processed

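Single-cell ATAC-seq signal of 415 cells was read from 1 deposited table of 23180 regions. The authors' deposited signal is a whole number per region and cell; 37.6% of the values above 0 equal 148, the bases of 1 read pair, and fragments are signal divided by 148. This reading rests on the values. Per the submitters' processing notes MACS2 and the build mm9 were used, without a stated role; the aligner, any duplicate removal and how regions were chosen: not given in the sources used here. A region was open where its signal was above 0. The rule gave 412 widely open regions (237 on odd-numbered, 175 on even-numbered autosomes), and they and all classes were chosen with earlier results of these data known. Expected probabilities, 1 − exp(−region rate × cell rate), were fitted to the row and column sums of open values. Co-opening is the Pearson correlation of observed minus expected values. This form was chosen after the values were seen: residuals divided by their expected SD were computed first, a few cells with extreme expected values dominated them in single pairs, and they were kept as an alternative. The second fold limit was 1.25. Scaled ratios are observed over expected in a group divided by the same outside it, with 0.5 added to each sum. Clusters used cells with at least 1000 fragments (1 left out), term frequency-inverse document frequency weights, components 2 to 10 and k-means with 50 starts, on regions that are not members. Regions named in the text are the extremes of each measure (10 by share, 5 of other kinds; 1 for the lowest pair, 2 for the lowest ratios in a cluster). The fit, correlations and ratios were tested on data simulated from the same fitted model with planted pairs and ratios. This checks the computation and not how well the model fits these cells. Python 3.11.15, numpy 2.4.6, pandas 2.3.3, scipy 1.17.1 and scikit-learn 1.9.0 were used. The annotation and motif counts planned for a genome on mm9 were not run.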

Additional observations from a re-analysis of the deposited data

How the results depend on the processing

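All cells are 1 group, so no replicate could be left out. No paired analysis was possible because there is only 1 group. Members were 1.78% of all regions. They were 0.0216% with more than 1 fragment required, 0.582% with a width under 1000 bp, 0.427% at a limit of 60% of cells and 5.56% at 40%. Deeper cells alone gave 8.24%, and thinning to 1500 open regions, which caps every share, gave 0. Members per region on chromosome 7 over all autosomes were 1.93, and 1.31 at a limit of 40%. The distance to the nearest region and the ratio of regions nearby moved by less than their SD over chromosomes (13.003 kb and 0.221). Without correction for depth the mean correlation was 0.183 in place of 0.0333 under 1 Mb and 0.165 in place of 0.00805 between chromosomes. Thinning gave 0.0163 and 0.00972. With residuals divided by their expected SD, the form computed first, the means were 0.0325 and 0.00876. The variance ratio of 5.14 was 5.80, 5.43 and 5.75 with more than 1 fragment, in deeper cells and after thinning. The ratio of shares in the shallowest to the deepest class, 0.368, was 0.258 with 10 classes and 0.148 with more than 1 fragment. It turned to 1.54 and 1.57 with 1500 and 750 open regions per cell, and to 1.07 with 1000 fragments. Members past 1.5-fold in any cluster were 0.728%, and 0.243% with 2 clusters, 22.1% after thinning and 10.2% at the second, lower fold limit (76.5% of all autosomal regions). Over title numbers the 0 became 27.7% after thinning and 10.7% at that limit (75.8%). Where not stated, the cause was not tested.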
